A study of Mus musculus with 18 samples.

Results

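The 10 epithelial keratins described here were Krt5, Krt7, Krt8, Krt14, Krt17, Krt18, Krt19, Krt20, Krt23 and Krt80, chosen by their current mouse symbol from the 36528 genes counted. RNA was sequenced from cultured renal proximal tubular epithelial cells (RPTEC) of C57BL/6 mice, bought as primary cells. The cells received vehicle (DMSO), 100 ng/mL TWEAK, or 100 ng/mL TWEAK with 3 µM NIK SMI1, and were collected after 6 h or 24 h, with 3 samples in each of the 6 groups. TWEAK is a cytokine of the TNF family that signals through the receptor Fn14, and NIK SMI1 is a small-molecule inhibitor of NIK, the kinase that drives non-canonical NF-κB signalling. No group received NIK SMI1 alone, and the sources name no separate animals or cultures, so the p-values measure only the spread between these samples.

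Keratins are the intermediate filament proteins of epithelia. Each filament unit pairs an acidic type I keratin with a basic type II keratin, so that a cell uses genes of both types. Simple epithelia, the renal tubule among them, are built on Krt8 (type II) and Krt18 (type I), with Krt7 (type II) and Krt19 (type I) in ducts and in injured or cultured tubules, and Krt20 (type I) in gut and urothelium. Krt5 (type II) and Krt14 (type I) pair in basal cells of stratified epithelia, and Krt17 (type I) is known from stressed and wounded epithelium. Krt80 (type II) is widespread in epithelia near junctions, and Krt23 is a less studied type I keratin.

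In the GENCODE annotation of GRCm38, the type I genes Krt20, Krt23, Krt19, Krt14 and Krt17 lay on chromosome 11. The type II genes Krt80, Krt7, Krt5 and Krt8 lay on chromosome 15, with the type I gene Krt18 beside Krt8. The 250 bases before the start of 4 strongly expressed members are shown because these genes moved together below. They are RefSeq sequences of GRCm38.p6, 5′ to 3′ on the strand of the gene, and capitals mark letters that match the κB motif (GGG, any 5 bases, CC) or the TATA motif TATAAA on either strand.
Krt8 (chr15:102004343-102004592, minus strand): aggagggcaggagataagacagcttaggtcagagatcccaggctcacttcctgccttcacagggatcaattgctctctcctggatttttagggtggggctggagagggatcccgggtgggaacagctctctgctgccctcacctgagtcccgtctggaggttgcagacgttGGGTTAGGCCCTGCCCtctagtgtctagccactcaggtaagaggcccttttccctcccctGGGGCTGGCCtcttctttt
Krt18 (chr15:102027966-102028215, plus strand): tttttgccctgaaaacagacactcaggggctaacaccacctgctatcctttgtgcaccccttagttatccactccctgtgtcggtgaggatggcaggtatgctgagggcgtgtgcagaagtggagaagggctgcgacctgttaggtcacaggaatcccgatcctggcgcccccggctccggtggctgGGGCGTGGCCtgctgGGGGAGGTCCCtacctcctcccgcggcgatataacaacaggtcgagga
Krt7 (chr15:101412153-101412402, plus strand): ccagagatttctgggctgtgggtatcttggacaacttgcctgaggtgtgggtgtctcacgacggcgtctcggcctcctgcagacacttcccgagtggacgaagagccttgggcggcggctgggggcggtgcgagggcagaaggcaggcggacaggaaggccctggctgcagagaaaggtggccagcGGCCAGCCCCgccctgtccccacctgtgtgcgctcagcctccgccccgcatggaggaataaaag
Krt20 (chr11:99438154-99438403, minus strand): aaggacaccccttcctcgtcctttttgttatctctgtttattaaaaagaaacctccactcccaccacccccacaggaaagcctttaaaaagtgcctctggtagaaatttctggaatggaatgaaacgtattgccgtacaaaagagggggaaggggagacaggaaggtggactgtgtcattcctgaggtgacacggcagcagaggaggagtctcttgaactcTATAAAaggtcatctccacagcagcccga

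A promoter was matched for 7 of the 10 members; Krt17, Krt19 and Krt80 were not matched. The κB letters stood in 5 of these 7 promoters, those of Krt7, Krt8, Krt14, Krt18 and Krt23, where 45.8% of all 32851 promoters of this length held them. Overlapping matches were counted separately, which gave 4 matches for Krt8, 3 for Krt18 and 1 for Krt7. The TATA letters stood in the promoter of Krt20 alone, with the first base 29 bases before the start, and in 12.4% of all promoters. The AP-1 letters TGANTCA stood in 0 of the 7 and in 6.75% of all. These matches describe the letters of this window only.

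Libraries held 18040966 to 51956444 reads on genes (median 35374254), so that 1 read was worth 0.0192 to 0.0554 CPM (the count of a gene scaled to the total of its library). The label was compared with marker genes. All 7 general epithelial markers were at or above 1 CPM in each group. Of 10 proximal tubule markers 4 reached 1 CPM, with a summed level of 21.8 to 28.3 CPM over the 18 samples. Among the defining ones Slc34a1 and Hnf4a stayed at or under 0.0574 CPM and Miox had no read, so the proximal tubule identity on the label rests on few of its markers. Markers of pancreatic islet summed to 14.3 to 29.0 CPM in the 6 h samples and the vehicle 24 h samples. They summed to 13.2, 0.214 and 4.18 CPM in TWEAK 24 h replicates 1, 2 and 3, and to 0.0451 to 0.087 CPM in the TWEAK with NIK SMI1 24 h samples. Results that rest on TWEAK 24 h were therefore also computed without its replicates 1 and 3, a choice made after seeing the data. This leaves 1 TWEAK 24 h sample, which the fit assumes to vary like the other groups, so a call kept or lost there is no replicate check. The vehicle 24 h samples keep their islet reads in that fit, so TWEAK and vehicle are not matched for them.

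Keratin transcripts were among the most abundant in these cells. On the deposited RPKM scale, which divides reads by depth and by transcript length so that genes can be compared, vehicle 6 h samples held Krt18 at 2496 ± 95.7 RPKM and Krt7 at 2188 ± 62.6 RPKM (SD, n = 3), ranks 3 and 4 of all 36528 genes. Krt19 followed at 1051 ± 24.6 RPKM (rank 20) and Krt8 at 1039 ± 20.3 RPKM (rank 21), and the samples of these neighbours overlapped. Krt20 was at 651.1 ± 17.7 RPKM (rank 39) and Krt80 at 21.15 ± 0.549 RPKM (rank 3601). The stratified keratins were far lower, with Krt5 at 1.036 ± 0.101 RPKM and Krt17 at 0.2469 ± 0.0406 RPKM. Krt14 had 0 to 20 reads and Krt23 had 0 to 4 reads per sample, too few to test. The abundant members were those of simple and ductal epithelia together with Krt20, known from gut and urothelium, and the basal pair Krt5 and Krt14 was weak.

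**Figure D1:**
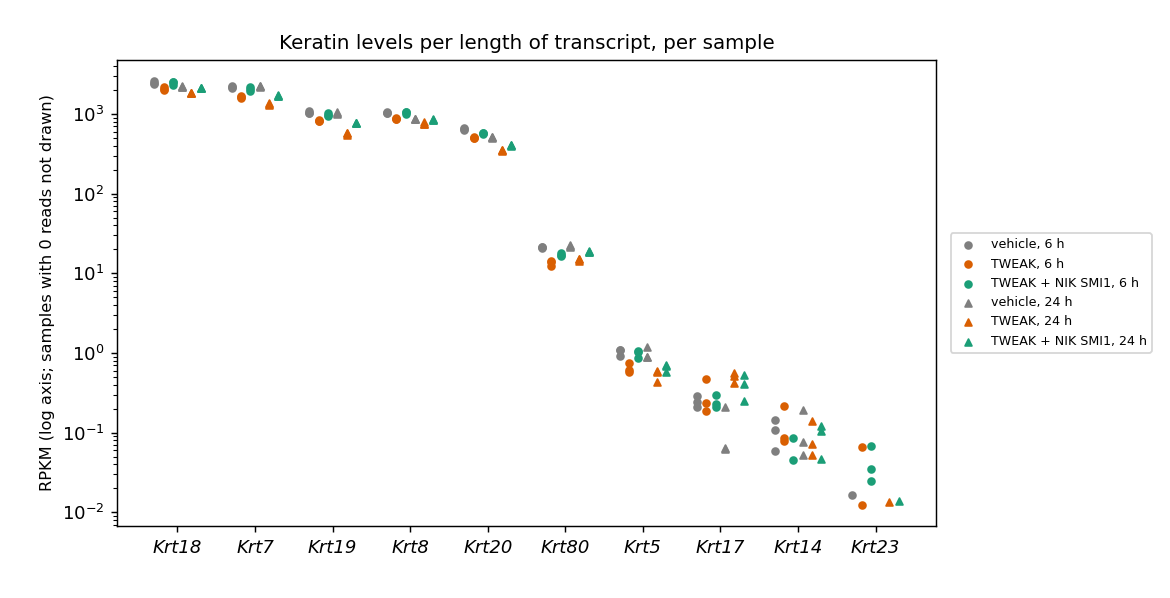
RPKM (log axis) of the 10 keratins in each of the 18 samples, ordered by their mean in the vehicle 6 h group; circles are 6 h, triangles 24 h. Krt18, Krt7, Krt19, Krt8 and Krt20 stand well above Krt80, and Krt5, Krt17, Krt14 and Krt23 lie at about 1 RPKM or below.

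Some reads cannot be given to 1 gene with certainty. Of the distinct 50-base runs in Krt8 transcripts, 29.7% also occurred in another gene, mostly in the pseudogene Krt8-ps. The share was 12.2% for Krt5, mostly with Krt6a, and 13.9% for Krt14, mostly with Krt16. It was 3.99% for Krt17, 2.74% for Krt80, below 1% for Krt7 and Krt18, and 0 for Krt19, Krt20 and Krt23. Since only uniquely aligned reads were counted, the levels of Krt8, Krt5 and Krt14 are uncertain to that extent.

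The first comparison asked what TWEAK did to the keratins. At 6 h, 7 of the 8 tested members were lower with TWEAK than with vehicle and none was higher, where 12% of all 15521 tested genes were lower and 11.7% higher (edgeR quasi-likelihood test, Benjamini-Hochberg adjusted p below 0.05). At 24 h the same test called 7 lower and 1 higher, where 20.7% of all tested genes were lower and 18.3% higher, 39% in all. The 10 members together took 1.38% ± 0.04 of all reads in vehicle 6 h samples and 1.11% ± 0.0216 with TWEAK (SD, n = 3). At 24 h they took 1.28% ± 0.0138 with vehicle and 0.914% ± 0.00924 with TWEAK. The 7 general epithelial markers summed to 3000 to 3090 CPM with vehicle and 3470 to 3570 CPM with TWEAK at 6 h, and to 2710 to 2720 CPM and 2890 to 2930 CPM at 24 h. Their sum was thus higher with TWEAK, while gene by gene 2 were called higher and 3 lower at 6 h, and 1 higher and 6 lower at 24 h. In bulk samples fewer cells of a type and less RNA per cell cannot be told apart.

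**Figure D2:**
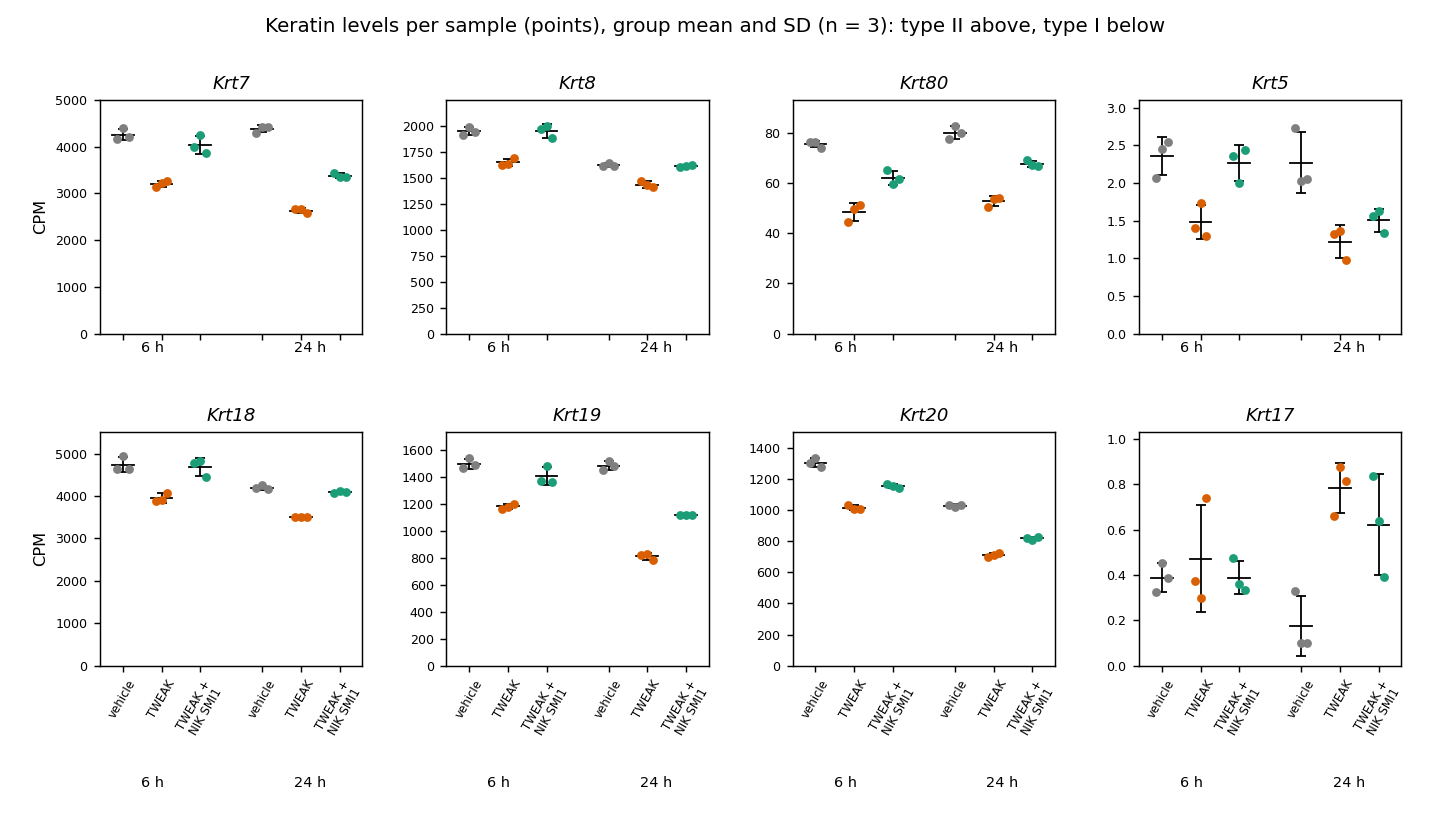
CPM of the 8 tested keratins in every sample (points), with group mean and SD (n = 3), for vehicle, TWEAK and TWEAK with NIK SMI1 at 6 h and 24 h; all axes start at 0. The TWEAK samples lie below the vehicle samples of the same time in all panels but Krt17, and the samples with NIK SMI1 lie above TWEAK except for Krt17 and, at 24 h, Krt5.

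Among the core pair of simple epithelia, Krt8 was at 1913, 1993 and 1939 CPM in vehicle 6 h samples and at 1622, 1629 and 1690 CPM with TWEAK. At 24 h it was at 1613, 1642 and 1613 CPM with vehicle and at 1471, 1426 and 1407 CPM with TWEAK. The groups did not overlap at either time, and the falls were small. Krt8 fell by 14.8% at 6 h (log2 fold change -0.23, SE 0.0301, edgeR adjusted p = 8.24e-07) and fell by 11.6% at 24 h (-0.18, SE 0.0302, edgeR adjusted p = 2.55e-05). Its partner Krt18 was at 4644, 4939 and 4624 CPM in vehicle 6 h samples and at 3871, 3895 and 4081 CPM with TWEAK. At 24 h Krt18 was at 4190, 4247 and 4155 CPM with vehicle and at 3504, 3498 and 3493 CPM with TWEAK. Every TWEAK sample was again below every vehicle sample of its time. Krt18 fell by 15.9% at 6 h (-0.25, SE 0.0328, edgeR adjusted p = 8.8e-07) and fell by 16.7% at 24 h (-0.26, SE 0.0328, edgeR adjusted p = 2.34e-07).

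The estimated falls of the ductal keratins were larger, most of all at 24 h, though genes were not tested against each other. At 6 h the 95% intervals of Krt19 (-0.40 to -0.27) and Krt18 (-0.31 to -0.19) overlapped. Krt7 was at 4170, 4403 and 4211 CPM in vehicle 6 h samples and at 3139, 3221 and 3263 CPM with TWEAK. At 24 h it was at 4300, 4433 and 4417 CPM with vehicle and at 2668, 2658 and 2573 CPM with TWEAK. No TWEAK sample reached the vehicle range, and the gap was wider at 24 h. Krt7 fell by 24.1% at 6 h (-0.40, SE 0.0317, edgeR adjusted p = 9.92e-11) and fell by 39.9% at 24 h (-0.74, SE 0.0318, edgeR adjusted p = 1.65e-16). Krt19, the type I keratin that lacks most of the tail domain, was at 1469, 1542 and 1492 CPM with vehicle and 1165, 1181 and 1202 CPM with TWEAK at 6 h. At 24 h Krt19 was at 1452, 1518 and 1486 CPM with vehicle and 819.0, 828.9 and 785.3 CPM with TWEAK. Of the members it had the lowest adjusted p at 24 h. Krt19 fell by 20.6% at 6 h (-0.33, SE 0.0325, edgeR adjusted p = 5.25e-09) and fell by 45.4% at 24 h (-0.87, SE 0.0328, edgeR adjusted p = 8.47e-18).

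Krt20 was at 1304, 1335 and 1277 CPM in vehicle 6 h samples and at 1034, 1006 and 1005 CPM with TWEAK. At 24 h it was at 1031, 1018 and 1034 CPM with vehicle and at 696.0, 708.3 and 721.6 CPM with TWEAK. The vehicle 24 h samples were about as low as the TWEAK 6 h samples, and TWEAK was lower again at 24 h. Krt20 fell by 21.6% at 6 h (-0.35, SE 0.0273, edgeR adjusted p = 6.04e-11) and fell by 31.1% at 24 h (-0.54, SE 0.0275, edgeR adjusted p = 6.21e-15). Krt80 was at 76.37, 76.11 and 73.93 CPM in vehicle 6 h samples and at 44.55, 49.62 and 51.13 CPM with TWEAK. At 24 h Krt80 was at 77.66, 82.69 and 79.71 CPM with vehicle and at 50.58, 53.74 and 54.09 CPM with TWEAK. These groups were far apart at both times. Krt80 fell by 35.2% at 6 h (-0.63, SE 0.0469, edgeR adjusted p = 3.02e-11) and fell by 33.7% at 24 h (-0.59, SE 0.0481, edgeR adjusted p = 7.44e-11).

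The basal keratin Krt5 was weak, at 2.074, 2.459 and 2.541 CPM in vehicle 6 h samples and 1.407, 1.73 and 1.294 CPM with TWEAK. At 24 h it was at 2.736, 2.029 and 2.05 CPM with vehicle and 1.322, 1.37 and 0.98 CPM with TWEAK. The groups did not overlap. Krt5 fell by 36.6% at 6 h (-0.66, SE 0.172, edgeR adjusted p = 0.00526) and fell by 48.1% at 24 h (-0.95, SE 0.191, edgeR adjusted p = 0.000243).

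Krt17 went the other way at 24 h. It had 14, 2 and 2 reads in vehicle 24 h samples, 0.3274, 0.1015 and 0.09762 CPM, and 15, 41 and 34 reads with TWEAK, 0.6609, 0.8775 and 0.8127 CPM. Every TWEAK sample was above every vehicle sample, and the vehicle group rested on few reads. The log2 fold change was 1.90 (SE 0.432, edgeR adjusted p = 0.000843, 95% interval 1.06 to 2.75), and between 1.66 and 2.96 with any 1 sample left out. At 6 h Krt17 was at 0.324, 0.4543 and 0.3849 CPM with vehicle and 0.3734, 0.2982 and 0.7394 CPM with TWEAK, and these groups overlapped (0.25, SE 0.380, edgeR adjusted p = 0.714, 95% interval -0.49 to 0.997).

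With a further limit of a change over 1.5-fold, 2 members were lower at 6 h, Krt5 and Krt80, where 2.24% of all tested genes were. At 24 h this limit left 4 lower, Krt5, Krt7, Krt19 and Krt80, and Krt17 higher, where 6.2% of all tested genes were lower and 4.32% higher.

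The unequal falls changed the makeup of the keratin transcripts within a sample, a ratio that does not depend on library scaling. The RPKM of Krt7 was 2.567, 2.599 and 2.636 times that of Krt8 in vehicle 24 h samples and 1.745, 1.795 and 1.761 times with TWEAK. Krt19 was at 0.4601, 0.4746 and 0.4748 of the RPKM of Krt18 in vehicle 24 h samples and at 0.3104, 0.3147 and 0.2986 with TWEAK. Neither ratio overlapped between the groups. The summed type I RPKM over the summed type II RPKM was 1.199 ± 0.0106 with vehicle and 1.298 ± 0.0212 with TWEAK at 24 h, and 1.292 ± 0.0108 and 1.346 ± 0.0111 at 6 h (SD, n = 3). With 3 samples against 3 an exact permutation test cannot give a p below 0.1, so these ratios are given as values.

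**Figure D3:**
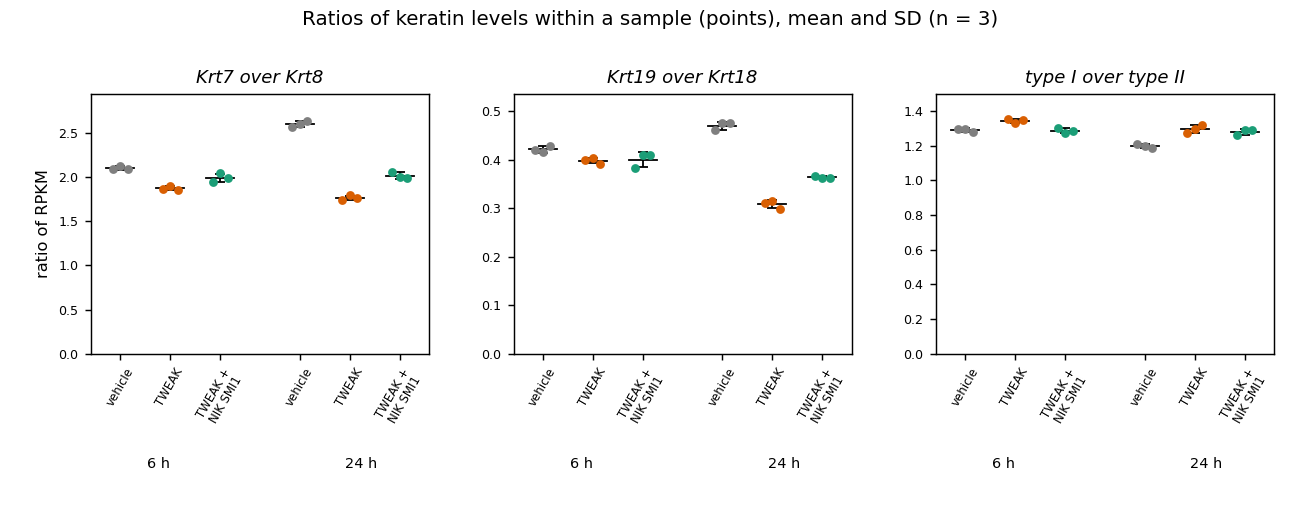
Ratio of RPKM within each sample (points), with group mean and SD (n = 3), for Krt7 over Krt8, Krt19 over Krt18 and all type I over all type II members; all axes start at 0. With TWEAK at 24 h the first ratio lies at 1.745 to 1.795 against 2.567 to 2.636 with vehicle, and the second at 0.2986 to 0.3147 against 0.4601 to 0.4748.

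Whether the TWEAK effect itself differed between times was tested as the effect at 24 h minus that at 6 h. It was more negative at 24 h for 3 of 8 members, where 5.67% of all tested genes were. The difference was -0.54 for Krt19 (log2, SE 0.0460, edgeR adjusted p = 3.22e-09), -0.34 for Krt7 (SE 0.0447, edgeR adjusted p = 6.59e-06) and -0.18 for Krt20 (SE 0.0387, edgeR adjusted p = 0.00197). For Krt8 it was 0.05 with a 95% interval of -0.03 to 0.14, for Krt18 -0.01 with an interval of -0.10 to 0.08, and for Krt80 0.03 with an interval of -0.10 to 0.16. The Krt17 difference of 1.65 did not pass (SE 0.589, edgeR adjusted p = 0.0828).

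Vehicle samples also changed with time in culture. Krt20 fell by 24.8% from 6 h to 24 h (edgeR adjusted p = 3.7e-12), Krt8 fell by 20.4% (edgeR adjusted p = 1.74e-09) and Krt18 fell by 15.3% (edgeR adjusted p = 1.84e-06). These were 3 of 8 tested members, where 14.4% of all tested genes fell, while Krt7 moved by -0.03 on the log2 scale with a 95% interval of -0.09 to 0.04. On the log2 scale the change with time was -0.33 for Krt8 and -0.24 for Krt18, beside -0.23 and -0.25 with TWEAK at 6 h, a comparison that shares the vehicle 6 h samples.

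The next comparison asked how far NIK SMI1 changed these levels in the presence of TWEAK. It shares the TWEAK samples with the comparison above, so the opposite directions of both are not independent. At 6 h, 7 of 8 tested members were higher with NIK SMI1 than with TWEAK alone, where 5.34% of all tested genes were higher. At 24 h 6 of 8 were higher, where 10.2% of all tested genes were.

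Krt7 was at 3992, 4251 and 3877 CPM with TWEAK and NIK SMI1 at 6 h and at 3440, 3349 and 3345 CPM at 24 h. All were above the TWEAK samples of their time. Krt7 was 1.254-fold higher at 6 h (log2 0.33, SE 0.0317, edgeR adjusted p = 2.36e-08) and 1.279-fold at 24 h (0.36, SE 0.0317, edgeR adjusted p = 2.28e-09). Krt19 was at 1375, 1486 and 1367 CPM at 6 h and at 1121, 1123 and 1117 CPM at 24 h with both agents. It was 1.186-fold higher than with TWEAK alone at 6 h (0.25, SE 0.0325, edgeR adjusted p = 3.74e-06) and 1.377-fold at 24 h (0.46, SE 0.0326, edgeR adjusted p = 2.83e-11). This was the one member whose NIK SMI1 effect differed between times, by 0.21 (SE 0.0460, edgeR adjusted p = 0.00629), where 3.11% of all tested genes had a higher effect at 24 h. With TWEAK 24 h replicate 2 as the only sample of its group the difference was 0.19, close to the value from all samples, and its edgeR adjusted p was 0.099.

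Krt8 was at 1971, 2002 and 1879 CPM at 6 h and at 1607, 1613 and 1618 CPM at 24 h with both agents. Krt18 was at 4778, 4829 and 4440 CPM at 6 h and at 4070, 4107 and 4103 CPM at 24 h. Both lay close to vehicle. The rise over TWEAK alone was 0.24 at each gene at 6 h (edgeR adjusted p = 2.01e-06 for Krt8 and 6.32e-06 for Krt18), and 0.16 for Krt8 and 0.22 for Krt18 at 24 h (edgeR adjusted p = 0.000186 and 1e-05).

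Krt20 was at 1170, 1152 and 1143 CPM at 6 h and at 817.7, 809.7 and 830.1 CPM at 24 h with both agents. Krt80 was at 65.01, 59.65 and 61.53 CPM at 6 h and at 69.06, 67.24 and 66.72 CPM at 24 h. Both sat between TWEAK and vehicle without overlap on either side. Krt20 was 0.18 and 0.20 higher than with TWEAK alone on the log2 scale at 6 h and 24 h (edgeR adjusted p = 2.82e-05 and 2.48e-06), and Krt80 was 0.35 higher at both times (edgeR adjusted p = 7.35e-06 and 2.84e-06).

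Krt5 was at 2.365, 1.996 and 2.439 CPM at 6 h and at 1.557, 1.624 and 1.332 CPM at 24 h with both agents. Its 6 h difference from TWEAK alone was 0.60 (SE 0.184, edgeR adjusted p = 0.0353). This call was lost without TWEAK 6 h replicate 1 (adjusted p = 0.117) or 3 (0.124), without replicate 1 (0.138) or 3 (0.0777) of the group with both agents, and when each time was fitted alone (0.0521), all by edgeR. At 24 h its difference was 0.31 with a 95% interval of -0.07 to 0.69. Krt17 was at 0.4731, 0.3593 and 0.3326 CPM at 6 h and at 0.8348, 0.6379 and 0.39 CPM at 24 h with both agents. Its difference from TWEAK alone was -0.20 at 6 h with an interval of -1.01 to 0.61, and -0.33 at 24 h with an interval of -0.98 to 0.32, so that a change of either sign could not be told from 0 at this depth.

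**Figure D4:**
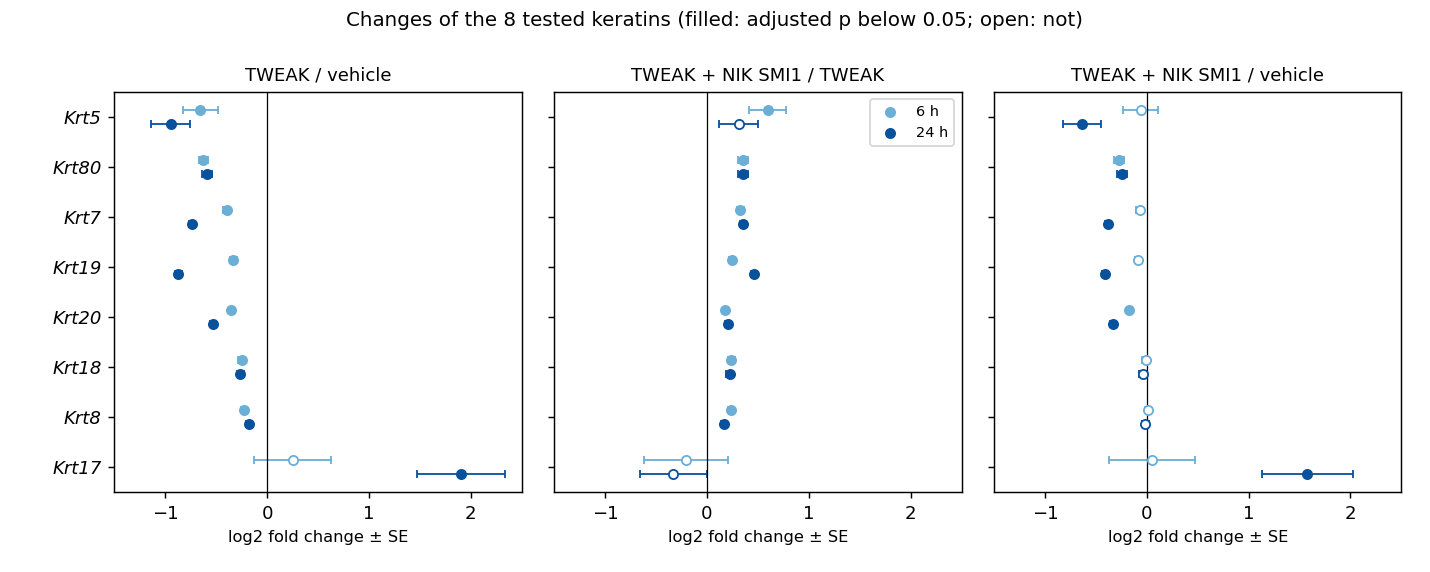
Log2 fold change with SE of the 8 tested keratins for TWEAK over vehicle, TWEAK with NIK SMI1 over TWEAK, and TWEAK with NIK SMI1 over vehicle, at 6 h (light) and 24 h (dark); filled points have an adjusted p below 0.05. Krt8 and Krt18 lie near 0 in the third panel, while Krt7, Krt19 and Krt20 remain below 0 there at 24 h.

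What was left of the TWEAK response was read from TWEAK with NIK SMI1 against vehicle, a comparison that shares its samples with both others. At 6 h only Krt20 (-0.17, SE 0.0273, edgeR adjusted p = 5.57e-05) and Krt80 (-0.27, SE 0.0476, edgeR adjusted p = 0.000187) were lower, 2 of 8 where 6.7% of all tested genes were lower. This count was 4 without replicate 2 of the group with both agents, with Krt7 and Krt19 then also called. At 24 h 5 of 8 were lower and Krt17 was higher, where 9.83% of all tested genes were lower and 8.07% higher. Krt19 was at 0.752 of its vehicle level (-0.41, SE 0.0326, edgeR adjusted p = 2.07e-10), Krt7 at 0.768 (-0.38, SE 0.0317, edgeR adjusted p = 5.33e-10) and Krt20 at 0.795 (-0.33, SE 0.0275, edgeR adjusted p = 4.83e-10). Krt80 was at 0.845 of it (-0.24, SE 0.0472, edgeR adjusted p = 0.000347).

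Krt8 and Krt18 differed from vehicle by -0.01 (95% interval -0.07 to 0.05) and -0.04 (-0.11 to 0.02) at 24 h, although the Krt18 samples of both groups did not overlap. Krt5 fell by 0.64 on the log2 scale against vehicle (SE 0.185, edgeR adjusted p = 0.0151), a call lost without vehicle 24 h replicate 1 (-0.44, adjusted p = 0.214 by edgeR) or replicate 3 of the group with both agents (0.0651). Krt17 was 1.57 higher (SE 0.447, edgeR adjusted p = 0.0129), a call lost without vehicle 24 h replicate 2 (0.0575) or 3 (0.062) or replicate 1 of the group with both agents (0.0892).

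Of the 44 other keratin genes 9 had enough reads to test. With TWEAK 2 of the 9 were higher at each time, Krt16 and Krt12, and 2 were lower, Krt6a with Krt26 at 6 h and Krt6a with Krt86 at 24 h. Of all tested genes 11.7% were higher and 12% lower at 6 h, and 18.3% and 20.7% at 24 h. All of these keratins were weak. The Krt26 call (-0.69, edgeR adjusted p = 0.0404) was lost without vehicle 6 h replicate 3 (0.313), without TWEAK 6 h replicate 2 (0.0969) or 3 (0.174), when that time was fitted alone (0.081), and without TWEAK 24 h replicates 1 and 3 (0.0534). The Krt86 call (-1.45, edgeR adjusted p = 0.0083) was lost without vehicle 24 h replicate 1 (0.105). Krt16, a type I keratin of stressed epidermis, was at 0.324, 0.481 and 0.231 CPM in vehicle 6 h samples and 3.16, 2.763 and 2.614 CPM with TWEAK. At 24 h Krt16 was at 0.2806, 0.1522 and 0.2929 CPM with vehicle and 3.657, 3.125 and 3.275 CPM with TWEAK. The groups were far apart, with log2 fold changes of 3.08 at 6 h (SE 0.22, edgeR adjusted p = 1.1e-11) and 3.70 at 24 h (SE 0.254, edgeR adjusted p = 2.54e-12). NIK SMI1 with TWEAK left Krt16 at 0.7985 to 1.053 CPM at 6 h and 1.106 to 1.189 CPM at 24 h, -1.60 and -1.53 against TWEAK alone (edgeR adjusted p = 1.61e-06 and 2.74e-07).

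Krt6a, a type II keratin that pairs with Krt16 in wounded epidermis, fell with TWEAK, by 1.72 at 6 h and 2.19 at 24 h on the log2 scale (edgeR adjusted p = 0.000292 and 0.000152). Krt12, known from cornea, was 0.79 and 1.07 higher with TWEAK at 6 h and 24 h (edgeR adjusted p = 0.0334 and 0.00546). The Krt12 call at 6 h was lost without vehicle replicate 1 (adjusted p = 0.114) or 3 (0.065), without TWEAK replicate 1 (0.0798) or 3 (0.107), and when that time was fitted alone (0.0654), all by edgeR. Krt16 and Krt17 thus were higher at 24 h while the type II Krt6a was lower. Krt14 shared 188 of its 50-base runs with Krt16, and Krt17 shared 6.

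**Figure D5:**
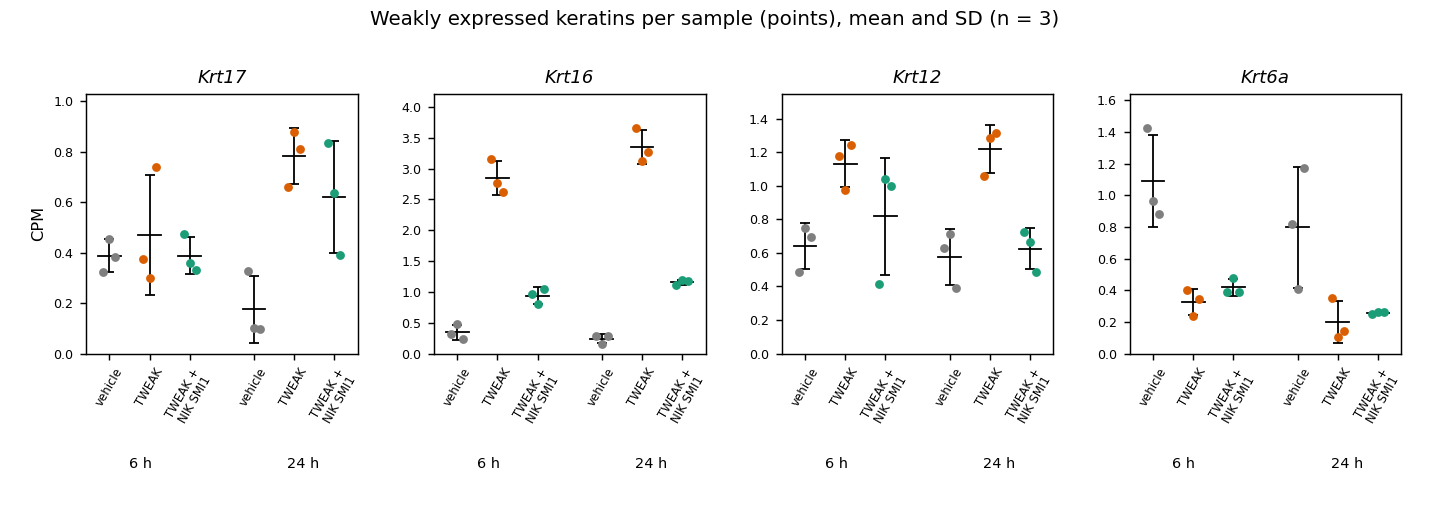
CPM of Krt17, Krt16, Krt12 and Krt6a in every sample (points), with group mean and SD (n = 3); all axes start at 0. Krt16 lies at 2.614 to 3.657 CPM in the 6 TWEAK samples and at 0.1522 to 0.481 CPM in the 6 vehicle samples, while Krt6a is lower with TWEAK.

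Genes that anchor keratin filaments were read from a list of 15 desmosome and hemidesmosome linkers, all tested. With TWEAK 9 were lower and 1 higher at 6 h, and 9 lower and 2 higher at 24 h, with a median log2 change of -0.21 and -0.26 where the median of all tested genes was near 0. Of all tested genes 12% were lower and 11.7% higher at 6 h, and 20.7% and 18.3% at 24 h. The plakins periplakin (Ppl) and envoplakin (Evpl), which tie filaments to desmosomes, fell by 1.29 and 1.17 at 24 h on the log2 scale (edgeR adjusted p = 3.42e-18 and 4.93e-16). With NIK SMI1 7 linkers were higher than with TWEAK alone at each time, and 1 at 6 h and 2 at 24 h were lower. Of all 15521 tested genes 5.34% were higher at 6 h and 10.2% at 24 h. In either direction 1714 of them were called at 6 h and 2866 at 24 h. Ppl rose by 0.64 at 24 h (edgeR adjusted p = 4.38e-11). Integrin α6 (Itga6), which holds hemidesmosomes to the basement membrane, fell by 0.59 at 24 h (edgeR adjusted p = 4.25e-13).

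Of 12 squamous differentiation genes 6 were tested. Involucrin (Ivl), a cornified envelope protein, fell by 2.11 at 24 h on the log2 scale (edgeR adjusted p = 1.85e-17) and transglutaminase 1 (Tgm1), which cross-links the envelope, by 1.63 (edgeR adjusted p = 7.1e-13). Sprr1a, another envelope precursor, was 1.45 higher (edgeR adjusted p = 1.86e-20). In all 3 of the 6 were higher and 3 lower at 24 h, where 18.3% of all tested genes were higher and 20.7% lower.

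Of 14 epithelial transcription factors 13 were tested, of which 8 were lower and 1 higher with TWEAK at 24 h, where 20.7% of all tested genes were lower and 18.3% higher. Elf3, an ETS factor of epithelia, fell by 0.71 at 6 h and by 1.29 at 24 h on the log2 scale (edgeR adjusted p = 5.28e-11 and 2.73e-16). Gata3, a factor of the nephric duct and urothelium, was 2.27 higher at 24 h (edgeR adjusted p = 4.44e-08). Its level was low, at 0.203 to 0.488 CPM with vehicle and 1.793 to 2.055 CPM with TWEAK. Of the 12 other intermediate filament genes 9 were tested, with 2 lower at 24 h, Synm and Lmnb1, and 0 higher, a share of lower genes near the 20.7% of all tested genes. The Synm call at 24 h was lost without vehicle replicate 1 (edgeR adjusted p = 0.0762) or TWEAK replicate 2 (0.0927).

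Markers of other cell types moved with these results, in both directions. The summed level of 6 urothelial markers was 18.3 to 20.7 CPM in vehicle 24 h samples, 6.04 to 6.78 CPM with TWEAK and 8.58 to 10.1 CPM with both agents, with 2 or 3 of the 6 at or above 1 CPM and Upk2 and Upk3a at or under 0.16 CPM. At 6 h it was 14.6 to 16 CPM with vehicle and 13.9 to 14.7 CPM with TWEAK. Psca weighed most in this sum, at 3.26 to 16.1 CPM over the 18 samples, and no other urothelial marker passed 2.47 CPM. Of the 4 tested, 3 were called lower and 1 higher with TWEAK at 24 h. At 6 h 1 was called higher and 0 lower. Of all tested genes 20.7% were lower and 18.3% higher at 24 h, and 12% and 11.7% at 6 h. The 6 basal or squamous markers summed to 21.3 to 22.5 CPM in vehicle 24 h samples, 5.33 to 5.57 CPM with TWEAK and 8.96 to 10 CPM with both agents. Nearly all of this was Ivl, with Trp63 at or under 0.0192 CPM and Krtdap without a read. Of 7 collecting duct markers Hsd11b2 alone reached 1 CPM, and the list summed to 4.34 to 4.52 CPM with vehicle and 5.95 to 6.78 CPM with TWEAK at 24 h. The 4 podocyte markers, of which only Podxl reached 1 CPM, summed to 328 to 339 CPM with vehicle and 241 to 250 CPM with TWEAK at 24 h. Over the 18 samples Col1a1 of fibroblasts was at 8.77 to 13.3 CPM. Of the leukocyte markers Cd68 was at 11.2 to 14.2 CPM, Csf1r at 5.15 to 12.5 CPM and Ptprc at or under 0.304 CPM. At 24 h the 6 leukocyte markers summed to 21.3 to 22.4 CPM with vehicle and 24.3 to 26.1 CPM with TWEAK. With both agents they summed to 19.8 to 21.0 CPM. Of the 2 tested, 1 was called higher and 0 lower with TWEAK at 24 h. The part of these markers in the keratin results was not tested. In TWEAK 24 h replicate 2, nearly free of islet reads, each tested member but Krt17 was below every vehicle 24 h sample, and Krt17 was above. The share of all tested genes outside the vehicle range in that 1 sample was not computed, so no weight is put on this. A fit with that sample as the only one of its group takes its spread from the other groups. The vehicle 24 h samples held islet markers at 14.3 to 19.5 CPM, against 0.214 CPM in that sample. This comparison was thus not matched for islet reads, and their part in the keratin changes cannot be read from it.

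Genes outside the members were ranked by the likeness of their pattern to that of a member, as the Pearson correlation of log2(CPM + 0.5) over the 18 samples. This was done among 13159 genes and for the 3 members with the widest span of group means. The members were not compared with each other. These points share depth and the same groups, so the values are descriptions. For Krt19 they were Adamtsl4 (r = 0.992), Styk1 (0.983) and Lpcat2 (0.981), and for Krt20 Lratd1 (0.993), Anxa1 (0.987) and Myo1d (0.986). For Krt17 they were Vhl (0.859), Klk8 (0.858) and Pinx1 (0.839), lower values for a gene with few reads.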

How the data were processed

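RNA of 18 samples in 6 groups of agent and time was sequenced. The authors used GSNAP within HTSeqGenie, with NCBI build 37 of the mouse as reference, and deposited, per sample, counts of uniquely aligned reads within exons and RPKM values; versions and the strand setting are not given in the sources used here. The submitters' processing notes also name DESeq2. Groups came from the labels. Of 36528 gene identifiers 31049 matched a symbol in the RefSeq table of GRCm38.p6. Counts were scaled to CPM by the total over genes. The 15521 genes with more than 10 reads in at least 4 samples were tested with edgeR 4.0.16 (R 4.3.3): TMM scaling, a quasi-likelihood fit over the 6 groups, contrasts, and Benjamini-Hochberg adjustment over all tested genes, called below 0.05. SE is the log2 fold change over the root of F, and 95% intervals are 1.96 SE wide on each side. RPKM served to compare genes. The counts as deposited were also tested with DESeq2 1.42.0, other scalings, filters and left-out samples. On simulated data for TWEAK against vehicle at 24 h (15317 genes), 100% of genes changed 2-fold, 76% changed 1.25-fold and 0.08% of unchanged genes were called. The simulation gave all genes the same spread between replicates, and its 200 changed genes had a mean above 1 CPM. These shares therefore do not cover weaker genes such as Krt17. No replicate pair agreed within sampling noise (lowest chi-square per gene 2.194). Vehicle 6 h replicate 1 stood apart, with 9.241 and 9.951 against the other replicates of its group. Those gave 4.563 between them, and no pair of another group passed 5.078. The members and gene lists were chosen with earlier results of these data known. Named list genes were taken from the called genes with the largest changes, up to 4 per list and comparison, and not all of these are named. All members are named.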

Additional observations from a re-analysis of the deposited data

Results flagged for a closer look

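The effect of TWEAK differed between 24 h and 6 h for 3 keratins by a test of the difference itself (edgeR quasi-likelihood test, adjusted over all genes). The log2 effect at 24 h minus that at 6 h was -0.54 for Krt19, -0.34 for Krt7 and -0.18 for Krt20. The effect of NIK SMI1 in the presence of TWEAK differed for Krt19 by 0.21 in the same test. The TWEAK samples enter both differences.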

How the results depend on the processing

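No paired analysis was possible because the labels give no replicate numbers. The counts of keratins called stayed within 1.5 times their values under DESeq2, other scalings, other filters and fits of each time alone, and with each sample left out, with 2 exceptions. The count for TWEAK with NIK SMI1 against vehicle at 6 h was 4 in place of 2 without replicate 2 of the group with both agents. The count for the NIK SMI1 effect at 24 h against 6 h was 0 in place of 1 without TWEAK 24 h replicates 1 and 3, an alternative chosen after seeing the data. It leaves 1 TWEAK 24 h sample, assumed to vary like the other groups, and the Krt19 difference behind the count was 0.19 there and 0.21 with all samples. The cause of the first exception was not tested. With 1 sample left out, the counts ranged from 7 to 7 (TWEAK, 6 h), 8 to 8 (TWEAK, 24 h), 6 to 7 and 6 to 6 (NIK SMI1, 6 h and 24 h), 2 to 4 and 5 to 6 (both agents against vehicle). Some values that were not called changed sign with 1 sample left out. These were Krt17 (-0.16 to 0.16), Krt18 (-0.0357 to 0.0321), Krt8 (-0.0142 to 0.0393) and Krt5 (-0.128 to 0.0176) for both agents against vehicle at 6 h, Krt18 (-0.041 to 0.0166) and Krt80 (-0.0314 to 0.0752) for the TWEAK effect at 24 h minus 6 h, and Krt17 for TWEAK (-0.23 to 0.54) and NIK SMI1 (-0.49 to 0.28) at 6 h. Depth limits Krt5 and Krt17, and Krt14 and Krt23 were too weak to test.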
